A study of Anopheles gambiae with 8 samples.

Results

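The genes of 9 *Anopheles gambiae* antioxidant enzymes were followed in Sua 4.0 cells, an established cell line of this malaria mosquito, after treatment with 20-hydroxyecdysone (20E). They were chosen by gene ID, 9 of the 13763 genes in the count table, and comprise catalase, 2 superoxide dismutases, 2 glutathione peroxidases, 2 thioredoxin peroxidases, thioredoxin reductase and the microsomal glutathione transferase *GSTMS1*. Of the 9 genes, 8 passed the filter on low counts and were tested, and 1 had no count in any library. The choice by ID applied no limit on a measured value, but it was made with earlier results of these data known. *GSTMS1* also stands in the gene list that the study drew from these same libraries, so its decrease here is not independent evidence. The study also lists qRT-PCR primers for *GSTMS1*. It reports qRT-PCR checks of a subset of its genes in Sua 4.0 cells and whole mosquitoes, which were not read here.

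Antioxidant enzymes remove the reactive oxygen species that respiration and oxidases produce. Superoxide dismutases turn superoxide into hydrogen peroxide, which catalase splits into water and oxygen and which glutathione and thioredoxin peroxidases reduce with thiols. Thioredoxin reductase restores thioredoxin with electrons from NADPH, and in *Drosophila* and *Anopheles*, which lack a true glutathione reductase, the thioredoxin system also keeps glutathione reduced. Microsomal glutathione transferases are membrane proteins that join glutathione to reactive molecules. In mosquitoes these enzymes are studied because blood digestion releases heme, a strong oxidant, and because oxidative stress affects both fecundity and infection with malaria parasites. 20E is the steroid hormone whose level rises after a blood meal.

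Sua 4.0 cells were exposed for 24 h to 20E in ethanol or to the ethanol vehicle (EtOH). Each group had 4 libraries, which the study describes as independent biological replicates. The labels give 10% ethanol for both groups. The study's methods instead describe undiluted ethanol as the solvent for the cells, with a comparable volume for the controls. They give a dilution of the ethanol only for injected mosquitoes, so the ethanol share that the cells met is not settled here. One cell line was used, so the values describe that line and no mosquito tissue. Each library pooled many cells, so fewer cells expressing a gene and less of its RNA per cell cannot be told apart. The deposited values were raw fragment counts per gene, and libraries held 6865599 to 14878014 counts. Replicate 1 stood apart from replicates 2, 3 and 4 in both groups on the leading principal component (46.0% of the variance), and it was the shallowest library of each group. The libraries with the same replicate number deviated together from their group means, with correlations from 0.646 to 0.835 over 8180 genes. The numbers were therefore taken to pair the libraries, which the study's methods do not state. Each gene is given with its ratio within each pair. Levels are given as CPM, counts divided by library sizes that were scaled with edgeR's TMM factors. The hormone receptor gene *HR4* (AGAP004693), an early gene of the 20E response, had 97.3 to 149 CPM in the 20E libraries and 0.0763 to 0.285 CPM in the EtOH libraries. *E75A* (AGAP012223), another early gene, had 74.6 to 142 CPM after 20E and 3.97 to 21.8 CPM after EtOH. Its ratio of 20E to EtOH in pairs 1 to 4 was 3.42, 14.3, 27.3 and 22.8, so it rose least in pair 1. Of 8 prophenoloxidase genes, which are typical of mosquito hemocytes, 6 or 7 had a count in each library. However, AGAP004977, AGAP012616, AGAP006258 and AGAP002825 did not pass the filter on low counts. Most of the summed level came from AGAP004981 and AGAP004975. The sum was 455, 348, 424 and 243 CPM in EtOH replicates 1 to 4 and 317, 662, 1147 and 1384 CPM after 20E, lower in pair 1 and higher in the other pairs. The part of these differences in the antioxidant results was not tested.

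With treatment as the only term, which was the main setting, 0 of the 8 tested antioxidant genes were called. When the replicate number entered the fit as a blocking term, 5 of them were called lower after 20E and none higher. With that block 9.11% of all genes tested were called lower and 8.34% higher. *GSTMS1* fell by 1.35 on the log2 scale, a level 60.8% lower as the geometric mean of the 4 pairs, and the glutathione peroxidase AGAP004247 fell by 0.86, or 44.8%. The second glutathione peroxidase, AGAP004248, fell by 2.10 from a very low level, thioredoxin reductase by 0.48 (28.4%) and the thioredoxin peroxidase AGAP011054 by 0.36 (21.8%). Catalase and both superoxide dismutases had log2 changes of -0.18, -0.21 and -0.17, and did not pass the test. Of the 8 genes, 6 were lower in 4 of 4 pairs and none was higher in all of them, where 16.2% of all genes tested were lower and 17% higher in 4 of 4 pairs, and catalase and the superoxide dismutase AGAP010517 were lower in 3 of 4.

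The limit for a call was 0.1 after Benjamini-Hochberg adjustment over all 8180 tested genes. With treatment as the only term, 0 of the 8 antioxidant genes were called in edgeR's quasi-likelihood fit, against 0.795% of all genes (0.281% lower and 0.513% higher). At an unadjusted p under 0.05 there were 2, *GSTMS1* and thioredoxin reductase, both lower, where 3.64% of all genes were lower at that limit. In separate fits with the same single term, DESeq2 called 1 gene lower (0.985% of its 9340 genes). The likelihood ratio test of edgeR also called 1 lower (0.795% lower and 1.8% in either direction). In both cases the gene was *GSTMS1*, and limma-voom called 0 (0.758% of all genes in either direction). With the replicate block the quasi-likelihood test called 5 of 8, all lower, where 9.11% of all genes were called lower, 8.34% higher and 17.4% in either direction. The biological coefficient of variation over all genes was 0.40 without the block and 0.137 with it. The median log2 change of the 8 genes with the block was -0.42, beside 0.01 over all genes tested. The blocked count was 4 when pair 1, 2 or 3 was left out and 5 without pair 4, and it was 4 on raw library totals, where the median of all genes moved by 0.125 on the log2 scale and all calls split into 507 lower and 1507 higher instead of 745 and 682.

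**Figure D1:**
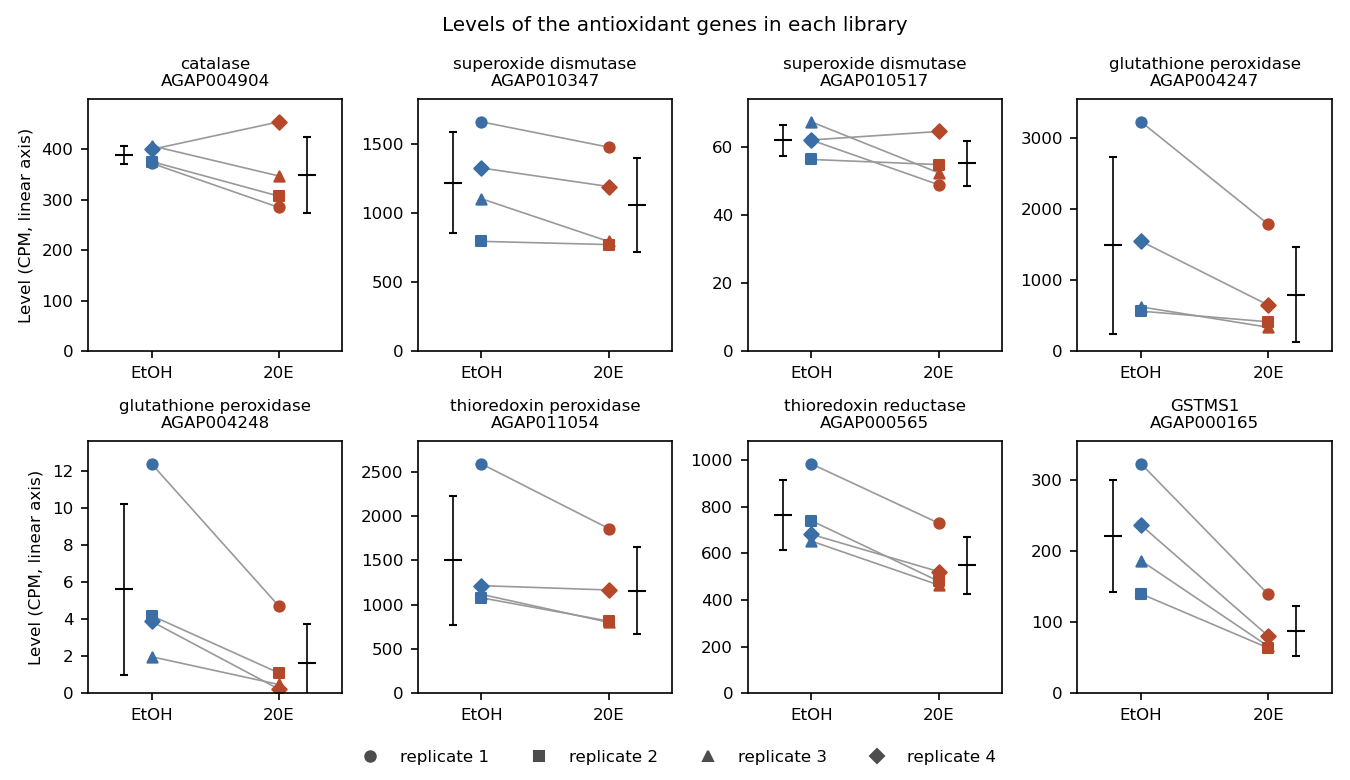
Level of each tested antioxidant gene in every library, in CPM on linear axes that start at 0, with EtOH libraries in blue, 20E libraries in red and lines joining the libraries with the same replicate number. Black bars give the mean and SD of the 4 libraries (cut at 0 for AGAP004248 after 20E). The groups are separate for *GSTMS1* alone, and replicate 1 is the highest library of both groups in 6 of the 8 genes.

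Over the EtOH libraries, the SD of log2 levels was larger than the SD of the paired log2 ratios in 5 of the 8 genes, and smaller for catalase, the superoxide dismutase AGAP010517 and the glutathione peroxidase AGAP004248. Over the 20E libraries it was smaller for AGAP010517 (0.17 against 0.21) and larger for catalase (0.30 against 0.25) and AGAP004248 (1.87 against 1.18). For 6 of the 8 tested genes replicate 1 was the highest library in both groups, which was so for 20.3% of all genes tested. These were the superoxide dismutase AGAP010347, both glutathione peroxidases, the thioredoxin peroxidase AGAP011054, thioredoxin reductase and *GSTMS1*. Catalase and the superoxide dismutase AGAP010517 were instead lowest in replicate 1 among the 20E libraries. The SD of log2 levels over the EtOH libraries ranged from 0.064 for catalase to 1.19 for the glutathione peroxidase AGAP004247, whose highest EtOH library was 5.70 times its lowest. For the latter the SD of the 4 paired log2 ratios was 0.33, and its counting error alone would give 0.022.

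In EtOH-treated cells the antioxidant genes covered a wide range of levels. Per kb of gene span, the glutathione peroxidase AGAP004247 had the highest mean, 668 ± 556 CPM per kb (SD, n = 4), followed by the superoxide dismutase AGAP010347 with 620 ± 185 and the thioredoxin peroxidase AGAP011054 with 557 ± 271. The ranges of these 3 genes overlapped, so their order is not settled by 4 libraries, and after 20E the superoxide dismutase was first and the glutathione peroxidase ranked 3. *GSTMS1* followed at 128 ± 45.3 CPM per kb, below the lowest library of the 3 leading genes, and thioredoxin reductase at 69.9 ± 13.8, with ranges that overlapped each other although *GSTMS1* was the higher in 4 of 4 libraries. The superoxide dismutase AGAP010517 and catalase had nearly the same level, 43.5 ± 3.16 and 43.2 ± 1.91 CPM per kb. The glutathione peroxidase AGAP004248 was far below all others, with 2.54 ± 2.09 CPM per kb. The listed length is the whole gene span with introns, so a long gene such as catalase (9004 bases) or thioredoxin reductase (10939 bases) is placed lower than its mRNA length alone would place it. Without scaling by length, catalase had a higher level than *GSTMS1* (389 and 221 CPM). Together the 9 genes took 0.402% to 0.834% of the counts of the EtOH libraries and 0.320% to 0.586% of those of the 20E libraries.

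**Figure D2:**
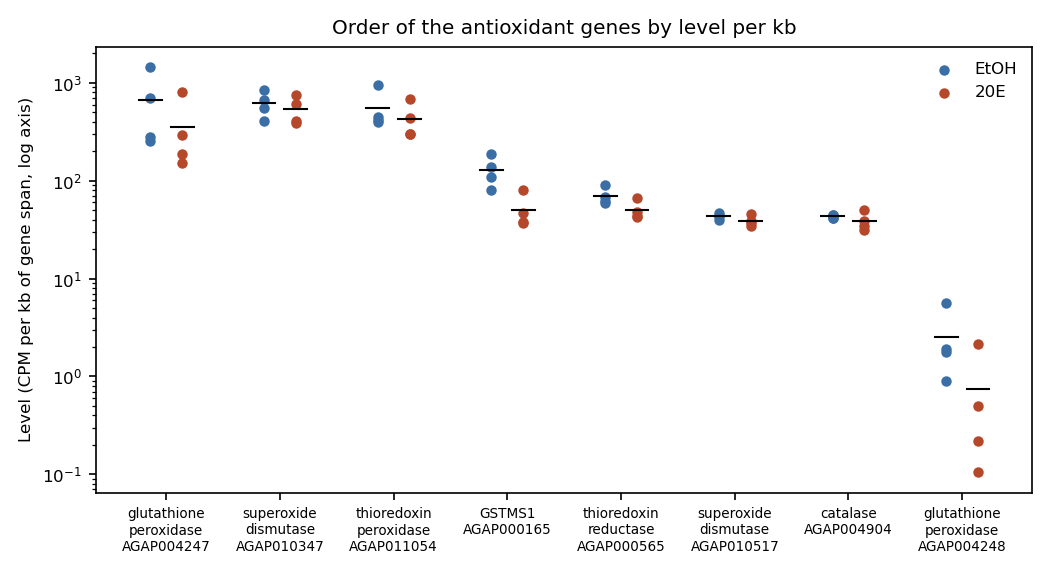
Level of each tested antioxidant gene per kb of gene span, on a log axis, ordered by the EtOH mean, with 1 point per library (EtOH in blue, 20E in red) and a black line at each group mean. The 3 leading genes overlap in EtOH at means of 668, 620 and 557 CPM per kb, while AGAP004248 lies at 2.54.

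The superoxide dismutases carry out the first step, from superoxide to hydrogen peroxide. AGAP010347 (AgamP4, 3L from 1918545 to 1920511) had 1657, 794, 1102 and 1324 CPM in EtOH replicates 1 to 4 and 1474, 771, 793 and 1190 CPM in the 20E replicates. Each 20E library was below its EtOH partner, by log2 ratios of -0.17, -0.04, -0.47 and -0.15, while the groups overlapped widely. With the block the log2 change was -0.21 (95% interval -0.45 to 0.03, adjusted p = 0.240 from edgeR), and without it -0.21 (-0.86 to 0.45, adjusted p = 0.999), so it was not called in either fit. AGAP010517 (3L from 5581693 to 5583118) was less abundant, at 62.0, 56.4, 67.4 and 62.1 CPM after EtOH and 49.0, 54.9, 52.5 and 64.6 CPM after 20E. Of the 4 pairs, 3 were lower and pair 4 was slightly higher, and with the block the log2 change of -0.17 (-0.39 to 0.05) had an adjusted p of 0.325 in edgeR. A p above the limit does not show that these genes were unaffected, and for AGAP010517 the interval includes decreases of up to 0.39 on the log2 scale. The counts of AGAP010347 were 26.7 times those of AGAP010517 in EtOH replicate 1 and 14.1 to 21.3 times in the other EtOH libraries.

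Catalase (AGAP004904, 2L from 5771985 to 5780988) removes hydrogen peroxide without a thiol donor. Its level was 372, 376, 407 and 400 CPM in EtOH replicates 1 to 4, the smallest relative spread of the 8 genes, and 285, 307, 347 and 454 CPM after 20E. Replicates 1, 2 and 3 were below every EtOH library after 20E, and replicate 4 was above all of them. The paired log2 ratios were -0.39, -0.29, -0.23 and 0.18. The log2 change was -0.18 with the block (-0.43 to 0.07, adjusted p = 0.346, edgeR) and -0.16 without it, and leaving out pair 4 in the blocked fit moved it to -0.30 without a call (adjusted p = 0.151). It was called in none of the fits with or without the block.

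The 2 glutathione peroxidase genes lie next to each other on the same strand of 2R, with 409 bases between them. They reduce peroxides with a thiol as the electron donor, and in *Drosophila* the related enzyme uses thioredoxin. AGAP004247 (2R from 53207112 to 53209347) had 3232, 567, 627 and 1550 CPM in EtOH replicates 1 to 4 and 1789, 417, 340 and 652 CPM after 20E. EtOH replicates 1 and 4 were well above the others and the groups overlapped, but each 20E library lay below its partner, with log2 ratios of -0.85, -0.44, -0.88 and -1.25. In the blocked edgeR fit it fell by 0.86 on the log2 scale (standard error 0.13), the adjusted p was 0.00253, and the gene was called with each pair left out, at -0.99 to -0.73. Without the block the change of -0.90 had an adjusted p of 0.999, and it was -0.20 without EtOH replicate 1 and -1.66 without 20E replicate 1.
AGAP004248 (2R from 53209757 to 53211971) was counted only 201 times in the EtOH libraries and 57 times in the 20E libraries. It had 87, 45, 26 and 43 counts in EtOH replicates 1 to 4 and 30, 16, 8 and 3 after 20E, or 12.4, 4.21, 1.98 and 3.89 CPM against 4.72, 1.11, 0.482 and 0.231 CPM. The paired log2 ratios of -1.39, -1.93, -2.04 and -4.07 thus rest on few fragments, the last on 3 counts, and counting error alone gives a pair ratio an SD of 0.58. The blocked fit gave a log2 change of -2.10 (-2.95 to -1.24, adjusted p = 0.00676, edgeR), and -1.72 without pair 4. Without the block the change was -1.86 (adjusted p = 0.847). AGAP004247 had 135 to 398 times the counts of its neighbour in the EtOH libraries and 376 to 2819 times in the 20E libraries. AGAP004248 had the lower ratio of the 2 genes in 4 of 4 pairs, by a mean of 1.5 (SD 0.96) on the log2 scale. An exact sign-flip permutation test over 4 pairs cannot give a two-sided p below 0.125, so that test could not pass an adjusted limit of 0.1 here.

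The thioredoxin arm is represented by 2 thioredoxin peroxidases, which reduce hydrogen peroxide with thioredoxin, and by thioredoxin reductase. AGAP011054 (3L from 15787249 to 15789939) had 2588, 1078, 1117 and 1215 CPM after EtOH and 1859, 815, 801 and 1166 CPM after 20E. EtOH replicate 1 stood far above the other 3 EtOH libraries. Pairs 1, 2 and 3 had nearly the same log2 ratio, -0.48, -0.40 and -0.48, and pair 4 was close to 0 at -0.06. This gene was the least firm of the 5 calls in the blocked fit. Its log2 change was -0.36 (standard error 0.11, adjusted p = 0.0644, edgeR), and it was not called without pair 1, 2 or 3 (adjusted p = 0.186, 0.146 and 0.206) or on raw library totals (adjusted p = 0.153). It was called without pair 4 (-0.45, adjusted p = 0.0599). In the fit without the block, leaving out EtOH replicate 1 turned the log2 change from -0.37 to 0.027.
Thioredoxin reductase (AGAP000565, X from 10021943 to 10032881) had 984, 741, 653 and 682 CPM in EtOH replicates 1 to 4 and 730, 481, 465 and 522 CPM after 20E. Only 20E replicate 1 reached into the EtOH range. Its paired log2 ratios were the most alike of the 8 genes, -0.43, -0.62, -0.49 and -0.385, with an SD of 0.10. With the block the log2 change was -0.48 (standard error 0.09, adjusted p = 0.00915, edgeR) and it was called with each pair left out, and without the block it was -0.48 (adjusted p = 0.722). The first 950 bases of its span, 8.69% of the listed length, are shared with AGAP000564 on the opposite strand, which had 877 to 1793 counts per library and a log2 change of -0.43 in the blocked fit (adjusted p = 0.0129, edgeR). Its count is therefore less certain than that of a gene that stands alone.

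The other thioredoxin peroxidase, AGAP011824 (3L from 33860576 to 33861767), had 0 counts in all 8 libraries, which by counting alone would allow at most 0.181 to 0.472 CPM per library. This 0 cannot be read as absence of its mRNA. The whole gene, 1192 bases, lies inside the span of AGAP028538 on the opposite strand, which itself had 6 to 15 counts per library. All 442 genes of the table that lie wholly inside a gene on the opposite strand had 0 counts in every library, as did all 259 that lie inside a gene on the same strand only. Among the 12109 genes that overlap no other gene, 11.5% were at 0. No enclosed gene of the table had a count, whichever its strand, so the level of AGAP011824 cannot be told from these counts.

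**Figure D3:**
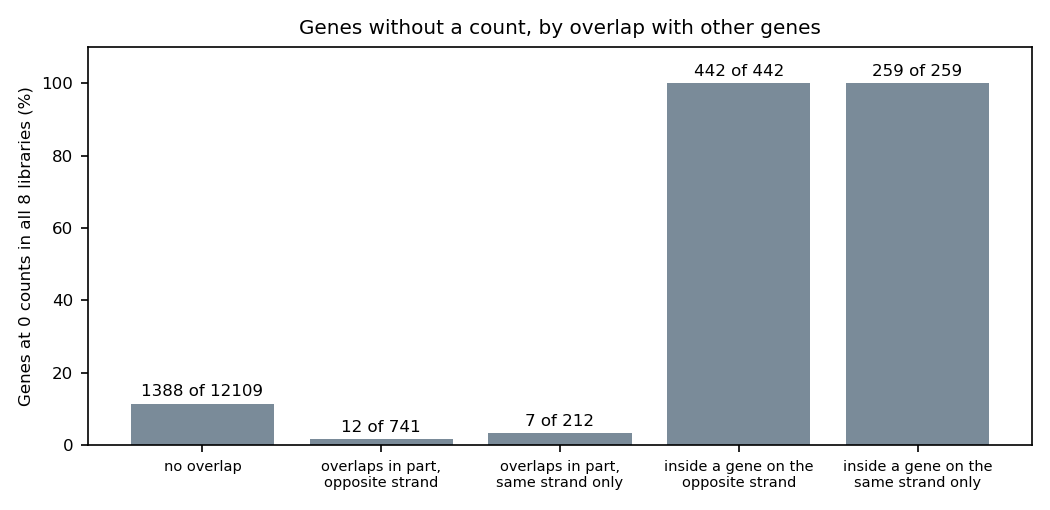
Share of genes with 0 counts in all 8 libraries, in percent, by how the listed span of a gene overlaps other genes, with the number of genes above each bar. The 442 and 259 genes that lie inside another gene are all at 0, and the thioredoxin peroxidase AGAP011824 is one of the 442.

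*GSTMS1* (AGAP000165, X from 2849321 to 2851042) had the smallest adjusted p of the 8 genes in both fits. Its level was 322, 140, 186 and 236 CPM in EtOH replicates 1 to 4 and 139, 63.6, 65.9 and 80.4 CPM after 20E. The highest 20E library lay just below the lowest EtOH library, so the groups did not overlap, as was so for 2.56% of all genes tested with 20E lower and 2.18% with 20E higher. The means were 87.2 ± 35.2 CPM after 20E and 221 ± 78.0 CPM after EtOH (SD, n = 4). The paired log2 ratios of -1.21, -1.13, -1.50 and -1.55 left each 20E library at 0.341 to 0.456 of its partner. In the blocked edgeR fit its adjusted p was 5.50e-05 at a log2 change of -1.35 (standard error 0.10), which stayed between -1.42 and -1.28 with a pair left out. Without the block it was -1.34 (standard error 0.33) and not called (adjusted p = 0.205), and of the 8 fits that left out a single library, the one without 20E replicate 1 called it (-1.65, adjusted p = 0.0644). DESeq2 (adjusted p = 0.0114) and edgeR's likelihood ratio test (0.022) called it without the block, and over all fits without the block its adjusted p ran from 0.0114 to 0.554.
The paired ratio of *GSTMS1* was lower than that of catalase, both superoxide dismutases, AGAP004247, AGAP011054 and thioredoxin reductase in 4 of 4 pairs each. The mean difference was 1.17 (SD 0.43) from catalase, 0.49 (SD 0.19) from AGAP004247 and 0.87 (SD 0.29) from thioredoxin reductase on the log2 scale. AGAP004248 was the exception, with the lower ratio in 4 of 4 pairs. With 28 pairs of genes compared and 4 ratios each, none of these differences could pass an exact permutation test. The 3 tested genes whose centred log2 levels over the 8 libraries were closest to those of *GSTMS1* were AGAP011984, AGAP003492 and AGAP012357, at root mean square differences of 0.245, 0.281 and 0.296. Their log2 changes with the block were -1.42, -1.83 and -0.81. The nearest antioxidant gene, thioredoxin reductase, was at 0.515, the 108th closest gene. Catalase and the superoxide dismutase AGAP010517 were each other's nearest antioxidant gene, at 0.105.

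**Figure D4:**
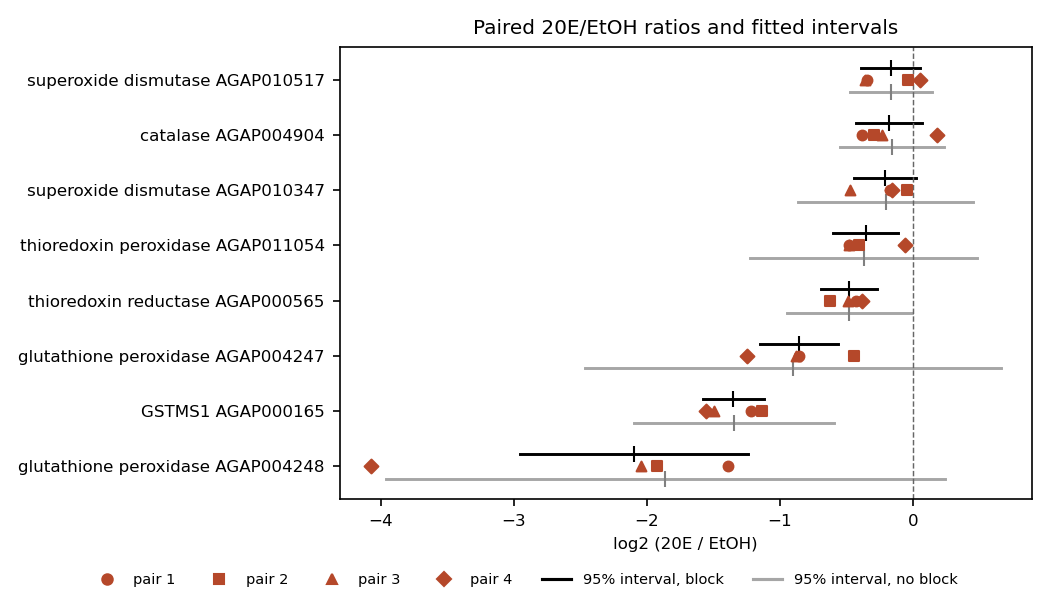
log2 ratio of 20E to EtOH for each tested antioxidant gene, with 1 red symbol per pair of libraries and the fitted change and 95% interval of edgeR's quasi-likelihood fit with the replicate block (black) and without it (grey). With the block the intervals of catalase and both superoxide dismutases reach 0, and the intervals of the 5 genes called lower do not.

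A wider redox list held 16 genes. It was made of the 8 genes from AGAP009190 to AGAP009197, which span 10618 bases of 3R and include the epsilon glutathione transferase *GSTE5*. The rest were the other genes that the study put in its redox group. Membership follows the ID run and that grouping, so a listed gene need not make or remove oxidants. Of the 16, 14 passed the filter. edgeR called 0 of them without the block. At an unadjusted p under 0.05 there were 9, all of them genes that the study chose on these libraries and none of the other 5 tested genes, where 557 of the 8180 genes were under that limit. DESeq2 without the block called 7 (5 lower, 2 higher), beside 2.09% of all its genes, the likelihood ratio test also 7 (5 lower, 2 higher), beside 1.8%, and limma-voom 0. With the block 9 fell and 2 rose, where 9.11% of all genes were called lower and 8.34% higher. The median log2 change with the block was -1.42 for the 9 genes of the study's redox group and -0.05 for the other 5, beside 0.01 over all genes tested. The 9 genes of the study's redox group were chosen on these libraries, so their 7 decreases and 2 increases are not independent evidence of direction. Of the other 7 genes in the ID run, 5 were tested, and AGAP009191 and AGAP009193 fell while none rose.
*GSTE5* (AGAP009192), which like *GSTMS1* joins glutathione to reactive molecules, had 116, 25.1, 47.9 and 31.9 CPM in EtOH replicates 1 to 4 and 18.9, 7.75, 22.9 and 10.2 CPM after 20E. The groups did not overlap, as was so for 2.56% of all genes tested with 20E lower and 2.18% with 20E higher. Its log2 change with the block was -1.74 (adjusted p = 7.09e-04, edgeR). *GSTE5* is in the study's redox group, which was chosen on these libraries, so its decrease is not independent evidence. Its neighbour AGAP009191 had 59.5, 17.9, 11.6 and 16.7 CPM after EtOH and 52.6, 4.70, 3.44 and 6.47 CPM after 20E, so that pair 1 was nearly level (log2 ratio -0.18) while the other pairs lay between -1.93 and -1.37. AGAP009193 fell by 0.72 with the block (adjusted p = 0.00995, edgeR). AGAP009194 went the other way, with a log2 change of 0.43 that was not called (adjusted p = 0.151, edgeR).
The 5 cytochrome P450 genes of the list have products that oxidize lipids and foreign compounds and can release reactive oxygen. All of them came from the study's redox group, chosen on these libraries. They were lower in 4 of 4 pairs, as were 16.2% of all genes tested. P450 genes outside that group were not read here. *CYP9L1* (AGAP012295) had 32.8, 10.0, 12.7 and 29.1 CPM after EtOH and 8.50, 2.01, 1.03 and 1.54 CPM after 20E, and a log2 change of -2.94 with the block. The other 4, *CYP9J4*, *CYP12F4* and 2 genes both named *CYP9M1*, had blocked log2 changes of -2.17, -1.66, -1.31 and -1.24. The gene for NADPH oxidase 4 (AGAP003772), an enzyme class that produces reactive oxygen from NADPH, had 10, 103, 120 and 520 counts after 20E and 7, 0, 1 and 1 counts after EtOH. It rose by 5.73 on the log2 scale with the block (95% interval 3.84 to 7.63, adjusted p = 0.00208, edgeR), from an EtOH level of 9 counts in all, so the size of the change is uncertain, and pair 1 showed little of it (log2 ratio 0.66). AGAP009632, listed as an ataxia telangiectasia mutated family protein, fell by 1.42 (adjusted p = 3.40e-04, edgeR). The ninjurin gene AGAP006744 rose by 2.99 (adjusted p = 3.40e-04, edgeR). Like the P450 genes, NADPH oxidase 4, AGAP009632 and the ninjurin gene came from the study's redox group. They were thus chosen on these libraries, and their changes are not independent evidence.

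**Figure D5:**
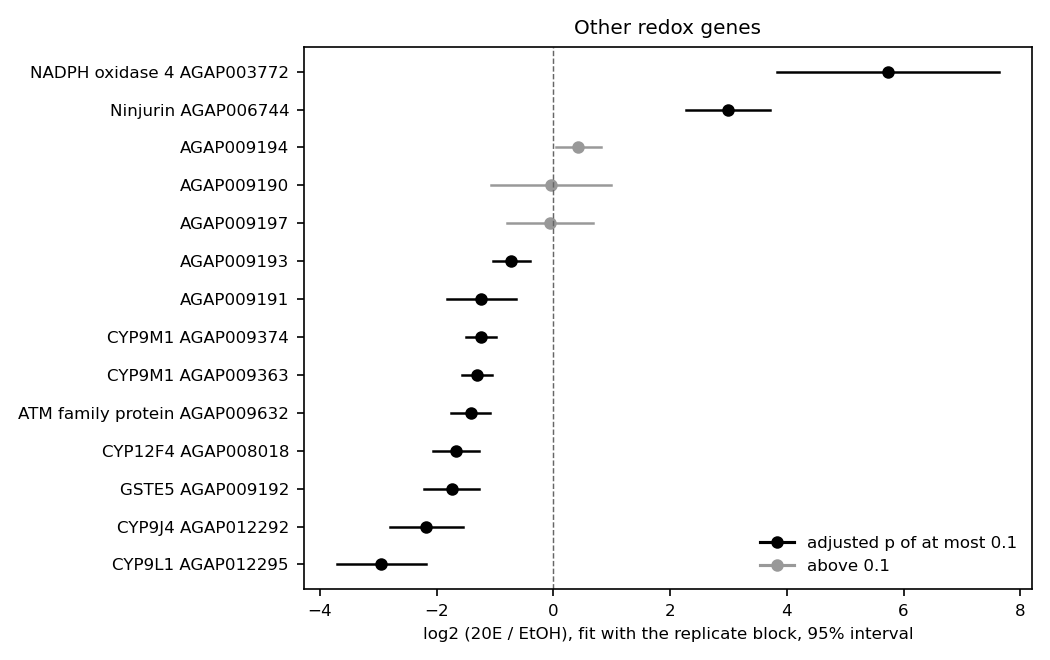
Fitted log2 ratio of 20E to EtOH of the 14 tested genes of the wider redox list, with 95% intervals from edgeR's quasi-likelihood fit with the replicate block, in black where the adjusted p was at most 0.1 and in grey where it was above. Of the 11 called genes, 9 lie below 0 and 2 above it, with *CYP9L1* lowest at -2.94 and NADPH oxidase 4 highest at 5.73.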

How the data were processed

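Counts from 8 libraries of Sua 4.0 cells, 4 per group, were used as deposited. The authors aligned paired-end reads to AgamP4 by STAR 2.5.2b and then counted fragments per gene with featureCounts, leaving out multimapped and chimeric reads and fragments with a missing end. These deposited counts are whole numbers without normalization, and the strand setting is not given in the sources used here. The listed length equals the gene span. Coordinates are those of the count table, and no sequence is shown. Libraries were grouped by title.

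Groups were compared with edgeR 4.0.16 (quasi-likelihood, under R 4.3.3), using TMM factors, its default expression filter (minimum count 10, minimum total 15) and treatment as the only term. Limits on a count of 0 were taken as 3 counts and cover counting error only, as reads carried no molecular identifiers. Standard errors are the absolute log2 change over the square root of F, and intervals use the test's degrees of freedom at 95%. Alternatives were the replicate block, DESeq2 1.42.0, limma-voom 3.58.1, the likelihood ratio test, RLE factors, no filter, an adjusted p of at most 0.05 and single libraries left out. Replicate numbers were taken to pair the libraries, since same-numbered libraries correlated at 0.646 to 0.835 and other pairs at most at 0.0854. The study describes 4 independent biological replicates, but its methods do not state that they were paired. The antioxidant genes and the redox list were chosen with earlier results of these data known. The rule for named genes was all 9 antioxidant genes, and at most 10 of the redox list with the smallest adjusted p or in the study's redox group. It also took the 3 genes closest to the antioxidant gene with the smallest adjusted p, and *HR4* and *E75A* as checks of the hormone response. AGAP009191, AGAP009193 and AGAP009194 were named after their values were seen.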

Additional observations from a re-analysis of the deposited data

Results flagged for a closer look

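Among 22 tested genes of the antioxidant and redox lists, up to 66 sets of 4 values were examined (each group and the paired ratios), and 8 values stood apart from the other 3 of their set, where chance alone flags about 1 group in 20. EtOH replicate 1 had 2588 CPM of the thioredoxin peroxidase AGAP011054, against 1078 to 1215 CPM in the other EtOH libraries. Replicate 1 was also apart for AGAP009191, at 52.6 CPM after 20E (others 3.44 to 6.47) and 59.5 CPM after EtOH (others 11.6 to 17.9), and for AGAP009193 at 63.8 CPM after 20E (others 13.7 to 17.0). In 20E replicate 1, *CYP9J4* (AGAP012292) had 148 CPM against 16 to 36.1 in the other 20E libraries, and *CYP9L1* (AGAP012295) had 8.50 CPM against 1.03 to 2.01. The gene for NADPH oxidase 4 (AGAP003772) had 40.1 CPM in 20E replicate 4 against 1.57 to 7.24 CPM in the others, and 0.998 CPM in EtOH replicate 1 against at most 0.0905. Of the 8 values, 7 were from replicate 1 and 1 from replicate 4. The cause was not tested.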

How the results depend on the processing

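The number of antioxidant genes called was 0 without the replicate block and 5 with it, 1 with DESeq2 and 1 with edgeR's likelihood ratio test, and 0 to 1 with single libraries left out. In settings added after seeing the data, it was 4 to 5 with the block and 1 pair left out, 5 with the block in DESeq2, 5 with RLE factors and the block and 4 on raw library totals with the block. For the redox list of 16 genes the number was 0, 11 with the replicate block, 7 with DESeq2, 7 with the likelihood ratio test, 0 to 6 with single libraries left out, 11 to 12 with the block and 1 pair left out, 11 with the block in DESeq2, 11 with RLE factors and the block, and 12 on raw totals with the block. Over all genes it was 65, with 1427 under the replicate block, 195 in DESeq2, 147 in the likelihood ratio test, 32 at an adjusted p of at most 0.05 and 16 to 65 with single libraries left out. With the block and 1 pair left out it ran from 844 to 1305 (1224 without pair 2, 870 without pair 4), and it was 1289 with the block in DESeq2, 1436 with RLE factors and the block, and 2014 on raw totals with the block. The cause of these differences was not tested. RLE factors without the block, no filter and limma-voom left the number of antioxidant and redox genes called at 0.

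One direction turned. Without the block, the log2 change of AGAP011054 ran from -0.69 without 20E replicate 1 to 0.027 without EtOH replicate 1. On CPM with no length scaling, 4 of the 7 steps in the order of levels were kept, and 5 to 7 with an EtOH library left out. The order per coding length was not run. Depth limits AGAP004248, with 3 to 87 counts per library.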
